A study of Drosophila melanogaster with 6 samples.

Results

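The genes described here are 10 fly genes of fatty acid and glycerolipid synthesis and of the SREBP pathway: SREBP, SCAP, S1P, AcCoAS, ACC, FASN1, Desat1, fu12, mdy and Lip4. They were chosen by gene symbol out of the 17714 genes listed in the deposited tables, with KO and WT values of these libraries already known, so their differences are given as a description, with no test. All 10 were found, and all 10 passed the filter on low counts that left 8405 genes. Of these, fu12 and Lip4 passed it only through their KO counts, with WT counts of 10, 4 and 6 and of 3, 0 and 2. Polyadenylated RNA was sequenced from Kc cells, a blood-cell-like line first grown from Drosophila melanogaster embryos. The 3 KO libraries are labelled ko for CG14906, also called mettl4, although their titles begin with OE, and the 3 WT libraries are labelled wild type. The labels used here do not give the lesion, the number of clones or whether the replicates were separate cultures, so errors and p-values cover only the spread between these libraries.

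SREBP is a transcription factor made as a membrane protein and held in the endoplasmic reticulum by its escort SCAP. SCAP carries it in COPII vesicles to the Golgi, where the proteases S1P and S2P release the part that enters the nucleus. In flies, which do not make sterols, it drives genes of fatty acid synthesis. Its known fly targets include the genes for acetyl-CoA synthetase (AcCoAS), acetyl-CoA carboxylase (ACC) and fatty acid synthase (FASN1). Desat1 adds a double bond to the fatty acids made, fu12 encodes an acyltransferase that makes phosphatidic acid and mdy the diacylglycerol acyltransferase that makes triglyceride.

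Total counts assigned to genes were 11301501 to 14312536 in the KO libraries and 9963557 to 18906951 in the WT libraries. CG14906, the targeted gene, had 20.3, 18.5 and 20.2 CPM (counts scaled to a common library size) in KO replicates 1 to 3, against 18.9, 20.1 and 16.4 CPM in WT replicates 1 to 3. Its RNA was thus not lower in the libraries labelled ko (log2 difference 0.10, adjusted p = 0.435, edgeR quasi-likelihood test), although with the medians of 1 Mb chromosome segments as an offset the difference was -0.29 (adjusted p = 0.0497). In both groups replicate 1 stood apart from replicates 2 and 3, along a second principal component that held 11.8% of the variance. WT replicates 2 and 3 were the closest pair, with a chi-square per gene of 1.65 against 18.5 to 28.6 for pairs with a replicate 1. Nuclear ribosomal RNA took 4.11%, 1.83% and 0.171% of the counts in KO replicates 1 to 3, and 3.98%, 0.218% and 0.219% in WT replicates 1 to 3. It was thus highest in replicate 1 of each group. Hml, a blood cell marker, was abundant in both groups, at 4494 ± 719 CPM in KO and 4174 ± 700.4 CPM in WT (SD, n = 3 each). Summed TPM (a level per transcript length) of 9 plasmatocyte markers ran from 1264 to 2092 in KO and from 828 to 1233 in WT. Of the 8 tested, 4 were higher and 2 lower in KO. Those higher were Pxn (log2 difference 4.15), Col4a1 (1.46), vkg (1.42) and srp (0.18). Those lower were eater (-2.10) and crq (-0.30). Hml, which is on this list and had a log2 difference of 0.11, thus does not stand for the other plasmatocyte markers. The 4 lamellocyte markers summed to 97.4 to 133 TPM in KO and 97.8 to 105 TPM in WT, with 1 of 2 tested, PPO3, higher in KO. Of these markers, atilla was at 0 in every library but WT replicate 2, where it had 1 count. The 4 crystal cell markers summed to 0.81 to 2.23 TPM in KO and 0.48 to 0.79 TPM in WT, and the 1 tested did not pass. The 8 fat body markers, of a tissue that stores lipid in the animal, summed to 0.91 to 2.16 TPM in KO and 5.86 to 8.49 TPM in WT, with Lsp1gamma at 0 in every library and 1 of 2 tested, Lsp1beta, lower in KO. The 4 oenocyte markers summed to 0.12 to 0.37 TPM in KO and 0.16 to 0.39 TPM in WT, and none was high enough to test. The part of the marker shift in the lipid gene results was not tested, and in bulk RNA fewer cells of a type and less RNA per cell cannot be told apart.

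The 3 genes that make and process SREBP were all lower in KO cells, by about the same modest amount. SREBP itself stood at 1169, 1307 and 1273 CPM in KO replicates 1 to 3, against 1562, 1639 and 1604 CPM in WT replicates 1 to 3. SCAP, the escort, stood at 138, 145 and 141 CPM in KO, against 182, 183 and 183 CPM in WT. S1P, the first protease to cut, stood at 17.3, 16.2 and 15.8 CPM in KO, against 21.8, 23.2 and 22.3 CPM in WT. For each of these genes every KO library lay below every WT library. The log2 difference, KO minus WT, was -0.36 for SREBP (SE 0.07), -0.37 for SCAP (SE 0.04) and -0.45 for S1P (SE 0.08). The second protease, S2P, is not one of the 10 genes but belongs to a pathway list that was also drawn up with results of these libraries known, so its p is not independent evidence. It fell to 71.1 ± 2.69 CPM in KO, against 89.7 ± 3.97 CPM in WT (SD, n = 3 each, log2 difference -0.33, adjusted p = 0.00255 by edgeR's quasi-likelihood test with Benjamini-Hochberg adjustment over all genes). The exons of S2P overlap those of CG34229 on the other strand, and whether reads were counted by strand is not given in the sources used here.

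**Figure D1:**
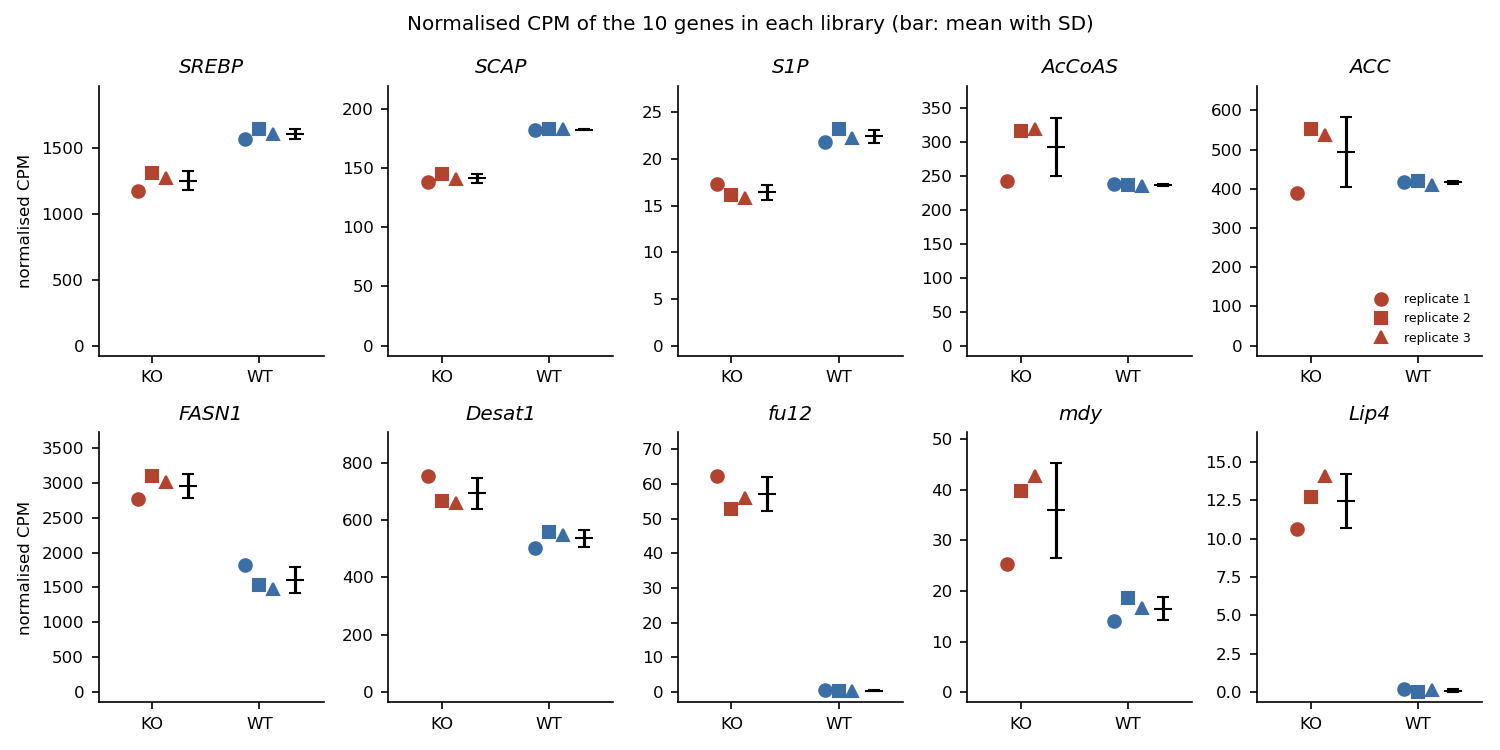
Normalised CPM of each of the 10 genes in the KO libraries (red, left) and the WT libraries (blue, right), 1 panel per gene with its own linear axis; circles, squares and triangles are replicates 1, 2 and 3, and the black bars give the mean and SD (n = 3). SREBP, SCAP and S1P lie lower in KO, FASN1, Desat1, fu12, mdy and Lip4 lie higher, and the KO replicate 1 points of AcCoAS and ACC lie near WT.

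In CPM the fatty acid enzymes lay higher in KO, except ACC, whose groups overlapped. In TPM the AcCoAS groups overlapped too. FASN1, which builds saturated fatty acids from acetyl-CoA and malonyl-CoA, stood at 2763, 3103 and 3012 CPM in KO replicates 1 to 3, against 1816, 1533 and 1473 CPM in WT replicates 1 to 3. Its mean was 1.84 times as high in KO, 2959.5 ± 176 CPM against 1607 ± 183 CPM in WT (log2 difference 0.88, SE 0.09). FASN1 thus lay higher in KO while SREBP RNA lay lower, with no overlap of the groups in either. Desat1, the stearoyl-CoA desaturase, stood at 755, 667 and 659 CPM in KO, against 504, 560.0 and 548 CPM in WT (log2 difference 0.37, SE 0.08). Its KO libraries also lay wholly above the WT libraries.

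AcCoAS and ACC, which make acetyl-CoA from acetate and malonyl-CoA from acetyl-CoA, showed a split among the KO libraries. AcCoAS stood at 243, 316 and 319 CPM in KO replicates 1 to 3, against 238, 237 and 236 CPM in WT replicates 1 to 3 (log2 difference 0.30, SE 0.10). ACC stood at 390.2, 552 and 538 CPM in KO, against 418, 419.7 and 411 CPM in WT (log2 difference 0.25, SE 0.13). KO replicate 1 lay just above the highest WT library for AcCoAS and below all 3 WT libraries for ACC, so the ACC groups overlapped. For both genes the other KO libraries lay well above WT. Without KO replicate 1 the log2 difference was 0.42 for AcCoAS and 0.38 for ACC.

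The largest differences among the 10 genes were in fu12 and Lip4, which were barely detected in WT. fu12, which the reference annotation names Agpat2, had 873, 684 and 645 counts in KO replicates 1 to 3, against 10, 4 and 6 counts in WT replicates 1 to 3. In CPM this was 62.4, 52.9 and 55.9 in KO, against 0.607, 0.399 and 0.314 in WT. The log2 ratio of KO to WT within same-numbered libraries was 6.68, 7.05 and 7.48 for numbers 1, 2 and 3. With every KO library above every WT library, any matching of libraries would give positive ratios. Summed over each group, the ratio of KO to WT scaled counts was 131 (95% interval 84.3 to 214, counting error only), because WT held 20 counts in all. Lip4, a lipase gene, had 148, 164 and 163 counts in KO, against 3, 0 and 2 counts in WT, a summed ratio of 113 (47.9 to 349). Its level in KO was modest, 10.6, 12.7 and 14.1 CPM, against 0.182, 0 and 0.105 CPM in WT. The fitted log2 differences were 6.99 for fu12 (SE 0.17) and 6.73 for Lip4 (SE 0.39). With so few WT counts they depend on the scale and on single libraries: for Lip4 the value was 7.32 without WT replicate 1 and 3.49 on log2(TPM + 1), and for fu12 it was 5.21 on log2(TPM + 1).

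mdy, the triglyceride-forming acyltransferase, was also higher in KO, with a wide spread among the KO libraries (SD 9.4 CPM around a mean of 36 CPM, n = 3). It stood at 25.3, 39.8 and 42.8 CPM in KO replicates 1 to 3, against 14.1, 18.7 and 16.7 CPM in WT replicates 1 to 3. The mean was 2.18 times as high in KO (log2 difference 1.13, SE 0.21), and the lowest KO library, replicate 1, still lay above the highest WT library. Within same-numbered libraries the log2 difference was 0.84, 1.09 and 1.36 for replicates 1, 2 and 3.

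Because the replicate 1 libraries stood apart, each gene was also set against WT within its own replicate number. No label states that same-numbered libraries are pairs, so pair here means only the same number. For numbers 1, 2 and 3 the log2 ratio of KO to WT was -0.42, -0.33 and -0.33 for SREBP, and it was -0.40, -0.34 and -0.38 for SCAP. For S1P it was -0.33, -0.52 and -0.50. For these 3 genes every KO library lay below every WT library, so any matching of libraries would give negative ratios. For FASN1 the log2 ratio was 0.61, 1.02 and 1.03, and for Desat1 it was 0.58, 0.25 and 0.27. FASN1 was thus less raised, and Desat1 more, in pair 1 than in the other pairs. For AcCoAS it was 0.03, 0.42 and 0.44 and for ACC it was -0.10, 0.39 and 0.39, so the excess of these genes in KO was seen in pairs 2 and 3 and not in pair 1.

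In the fit over all 8405 genes, 6 of the 10 lay higher in KO and 3 lower past the threshold of adjusted p 0.05, and ACC did not pass. AcCoAS, one of the 6, lost its call in 9 of 16 alternatives, among them the fits that left out KO replicate 2, KO replicate 3 or any single WT replicate, and Desat1, another, lost it with the segment offset. Over all tested genes 54.1% passed it, 27.7% as higher and 26.5% as lower in KO. In normalised CPM, all KO libraries lay on 1 side of all WT libraries for 9 of the 10 genes, 6 with KO above and 3 below. AcCoAS was 1 of these, but in TPM its KO replicate 1, at 131.21, lay below the lowest WT library, at 132.75. Separation in CPM was seen for 63.3% of all tested genes, 31.9% with KO above and 31.4% with KO below. Since KO and WT values were known when the genes were chosen, nothing is read from these counts. The median log2 difference was 0.34 over the 10 genes and 0.008 over all tested genes. A difference of at least 2-fold was seen in 3 of the 10, fu12, Lip4 and mdy, and in 14.6% of all tested genes. Because fu12 and Lip4 passed the filter only through KO, a large difference in them could only be higher in KO.

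**Figure D2:**
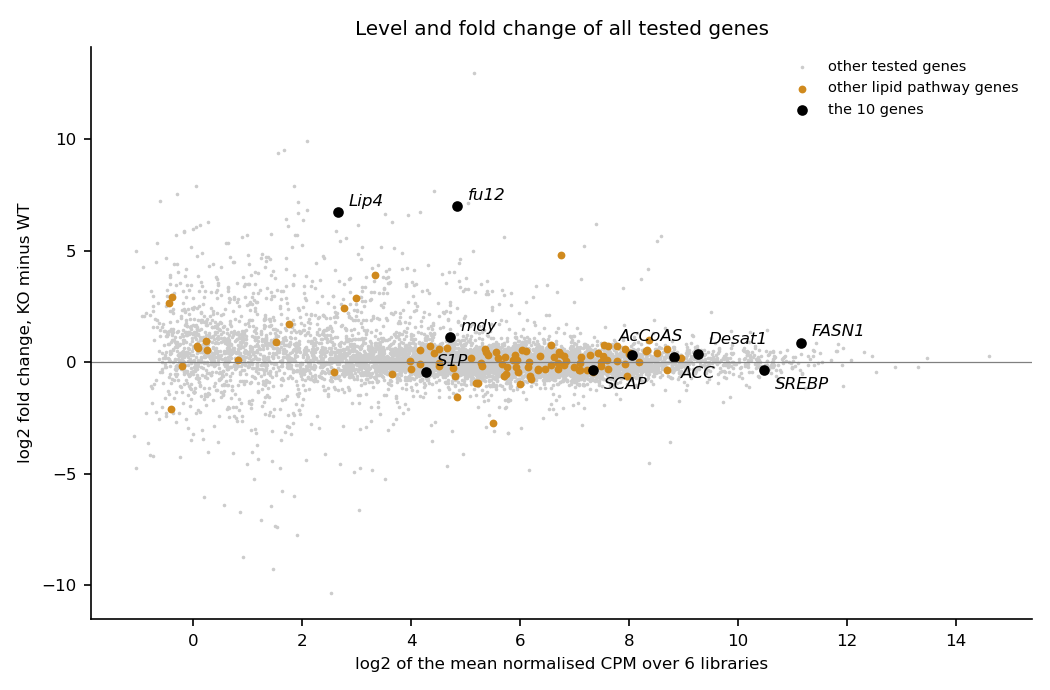
Each tested gene's fitted log2 difference (KO minus WT, vertical) against its log2 mean CPM over the 6 libraries (horizontal), with the 10 genes in black, the other lipid pathway genes in orange and all others in grey. fu12 and Lip4 stand far above 0, and FASN1 and SREBP have the highest CPM of the 10.

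Per transcript length, the order of the genes differed between the groups, with fu12 3 places higher in KO and with SREBP at place 3 in KO and place 1 in WT. In KO the highest levels were those of Desat1 at 543 ± 30.1 TPM, FASN1 at 502 ± 39.1 TPM and SREBP at 485 ± 37.2 TPM, and the ranges of these neighbours overlapped. In WT SREBP led alone at 631 ± 19.8 TPM, above Desat1 at 428 ± 27 TPM and FASN1 at 276 ± 29.3 TPM. AcCoAS and ACC came next in both groups, at 162 ± 26.9 and 92 ± 18.3 TPM in KO and at 133 ± 0.515 and 78.6 ± 0.956 TPM in WT. fu12 took the sixth place in KO with 54.1 ± 3.89 TPM, above SCAP with 40.8 ± 1.74 TPM, and the ninth in WT with 0.483 ± 0.1 TPM. The rest of the KO order was mdy at 26.1 ± 7.27, Lip4 at 11.2 ± 1.77 and S1P at 7.8 ± 0.193 TPM. In WT, SCAP stood at 53.5 ± 0.705 TPM, mdy at 11.9 ± 1.7 TPM and S1P at 10.8 ± 0.421 TPM, these last 2 with overlapping ranges, and Lip4 was last at 0.0833 ± 0.0764 TPM (SD, n = 3 for each).

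By role, SREBP, SCAP and S1P together made 534 ± 38.8 TPM in KO and 695 ± 20.9 TPM in WT. The fatty acid enzymes AcCoAS, ACC, FASN1 and Desat1 together made 1299 ± 55.4 TPM in KO and 916 ± 12.1 TPM in WT. The acyltransferases fu12 and mdy made 80.1 ± 5.58 TPM in KO and 12.3 ± 1.65 TPM in WT (SD, n = 3 each). Thus the summed TPM of the regulators was lower and that of the enzymes higher in KO, without overlap between the groups. Most of the regulator sum was SREBP, at 485 TPM in KO and 631 TPM in WT. The enzyme sum was mostly Desat1 and FASN1, at 543 and 502 TPM in KO and 428 and 276 TPM in WT. In KO replicate 1, AcCoAS at 131.21 TPM and ACC at 70.8 TPM lay below every WT library, so the sum does not hold for each enzyme.

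**Figure D3:**
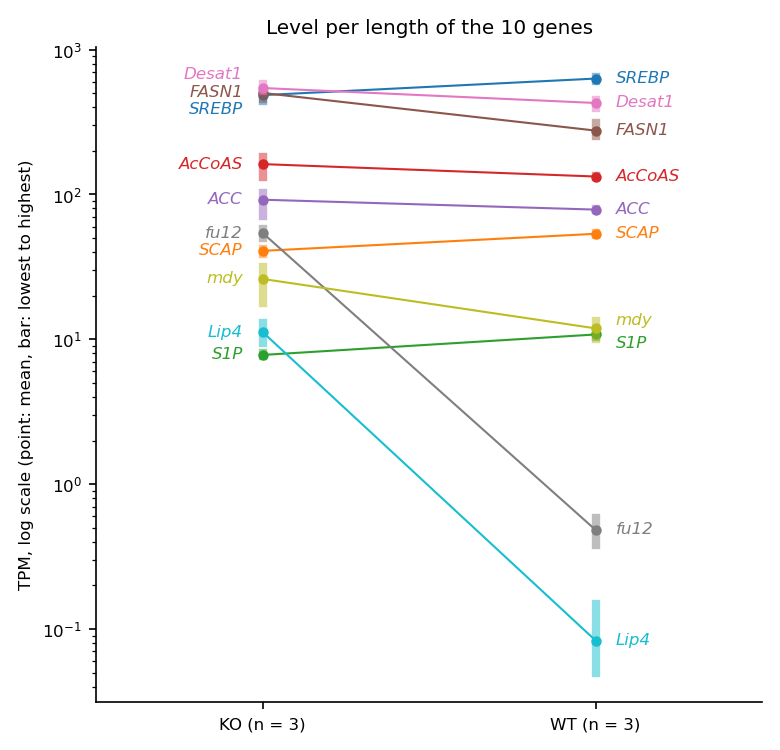
TPM of the 10 genes on a log axis, KO left and WT right; points are means, shaded bars run from the lowest to the highest library (n = 3), and lines join the same gene. The bar of Lip4 in WT stops at 0.05 TPM because 1 WT library was at 0, which a log axis cannot show. fu12 and Lip4 lie far higher in KO than in WT, and SREBP, SCAP and S1P slope upwards towards WT.

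The isoform-weighted transcript length in the deposited tables gave a further readout. It was 2093.41, 2101.45 and 2106.6 bases for mdy in KO replicates 1 to 3, against 2143.39, 2155.87 and 2123.24 bases in WT replicates 1 to 3, so KO lay below WT without overlap. For Desat1 it averaged 1942 ± 0.821 bases in KO and 1940 ± 1.22 bases in WT (SD, n = 3 each), again without overlap but by a few bases only. For fu12 it averaged 1622 ± 2.14 bases in KO and 1413 ± 177 bases in WT, a WT value that rests on 20 counts. WT replicate 1 was at 1617 bases, and WT replicates 2 and 3 were both at 1311 bases. SREBP, FASN1, ACC and AcCoAS overlapped between the groups, and SCAP and S1P have a single annotated transcript. The Lip4 values overlapped too, but those in WT rest on 3, 0 and 2 counts. The length given for the library with 0 counts is no measurement. How many of all genes lie apart in length was not computed, so nothing is read from those that do here.

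The 10 genes lie on 4 chromosome arms, and their neighbours differed in how they stood in KO (dm6 coordinates). SREBP (3L, 19793935 to 19798979, plus strand), SCAP (2R, 6026273 to 6036388, minus) and S1P (3L, 21613797 to 21617376, minus) lay in 1 Mb segments where the tested neighbours had a median log2 difference of -0.05, -0.13 and -0.15. With the segment medians taken as an offset in the fit, the log2 differences were -0.30 for SREBP, -0.24 for SCAP and -0.29 for S1P. AcCoAS (3L, 21270722 to 21280243, minus) lies in the same segment as S1P, 334 kb away, and its difference had the opposite sign. SREBP shares 5 exon bases with CG14102 on the other strand, and the other 9 genes share none with any annotated gene.

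Desat1 was the gene whose direction depended on its neighbourhood. Its segment (3R, Desat1 at 12439600 to 12447616, plus) held 77 tested neighbours with a median log2 difference of 0.58, of which 53 rose and 2 fell. Its own 0.37 was thus below that of its neighbours, and -0.20 with the segment offset. FASN1 (2L, 3056598 to 3068177, plus) had 57 tested neighbours with a median of 0.48, and its difference was 0.40 with the offset. For fu12 (2L, 8449691 to 8463994, minus) and Lip4 (2L, 10527572 to 10531778, plus) the neighbours' medians were -0.11 and 0.13, against differences of 6.99 and 6.73. mdy (2L, 16816660 to 16826964, plus) and ACC (2R, 7974115 to 7991862, minus) stood in segments with medians of -0.30 and -0.17, and with the offset their differences were 1.41 and 0.42.

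**Figure D4:**
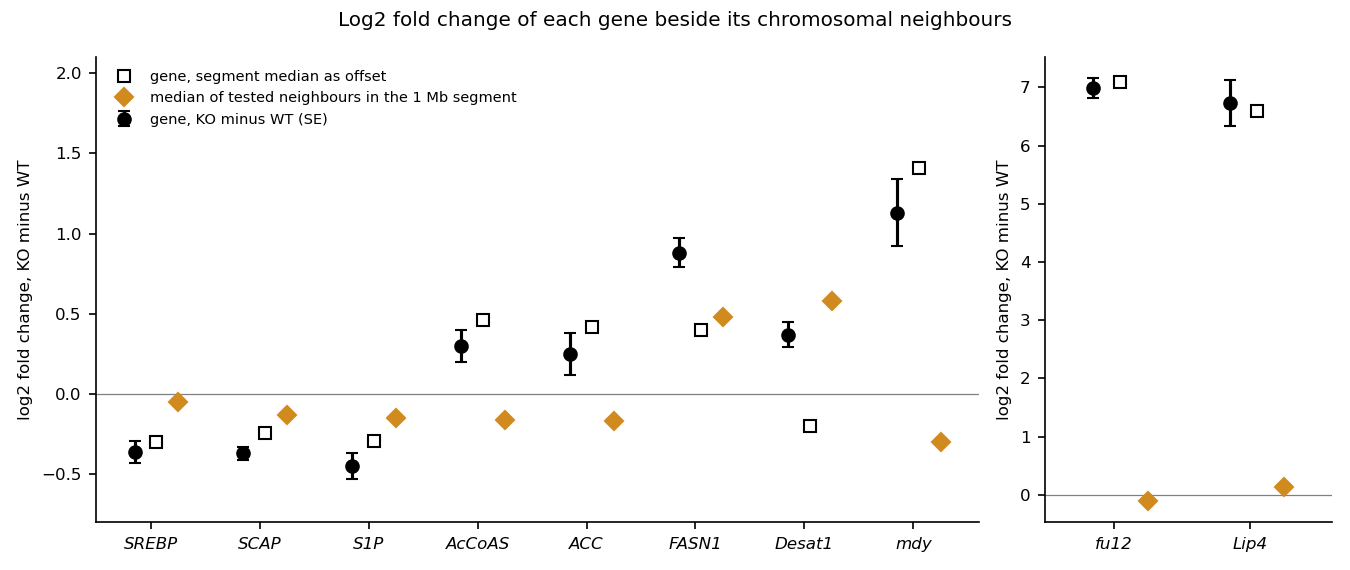
Log2 difference of each of the 10 genes, KO minus WT, as fitted (black, bars are SE), with segment medians as an offset (open squares), beside the median of its tested neighbours in a 1 Mb segment (orange diamonds); fu12 and Lip4 have their own axis. Desat1 is the gene whose sign turns, from 0.37 as fitted to -0.20 with the offset.

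The other genes of these pathways were taken from 10 lists of 135 genes, of which 103 were tested. Of these, 39 rose, 28 fell and 36 did not pass, so 65.0% passed against 54.1% of all tested genes, with a median log2 difference of 0.09 against 0.008. Of the 47 genes that a rule of lowest adjusted p picked from the lists, 23 share exon bases with another gene, among them S2P, Sec24CD, Sec24AB, sea, ATPCL, Zw, mino, oys, Cds and CG12262, and without strand the reads of such genes cannot be told apart. Since these lists too were chosen with results of these libraries known, their p-values are not independent evidence. Adjusted p-values in the following paragraphs come from edgeR's quasi-likelihood test over all tested genes, and CPM values are mean ± SD with n = 3 in each group.

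**Figure D5:**
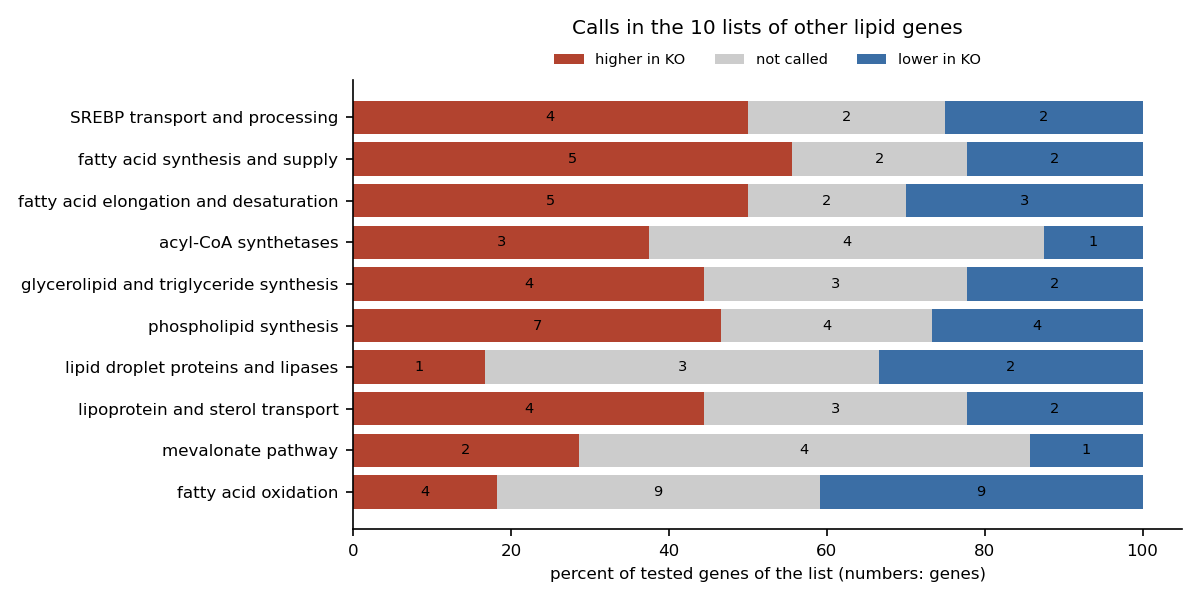
Share of the tested genes of each of the 10 lists that rose in KO (red), did not pass (grey) or fell in KO (blue), in percent, with the number of genes printed on the bar. Fatty acid oxidation has 9 genes that fell and 4 that rose, and fatty acid synthesis 5 that rose and 2 that fell.

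Among 8 tested genes of SREBP transport and processing 4 rose and 2 fell. Sec24CD, a COPII cargo adaptor, rose to 272 ± 13.8 CPM in KO, against 165 ± 7.09 CPM in WT (log2 difference 0.72, adjusted p = 9.51e-05), and Sec23 rose by 0.39 (adjusted p = 0.00189). Sar1 rose by 0.40 (adjusted p = 0.000679), a call kept in 15 of 16 alternatives, and Sec24AB fell by 0.30 (adjusted p = 0.00355). Looked up after their values were seen, Sec13 had a log2 difference of 0.31 (adjusted p = 0.00229) and Sec31 stood at 0.01 (adjusted p = 0.894). Among the Sar1 and Sec genes of this list, only Sec24AB thus fell. The other gene of the list that fell was S2P.

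In fatty acid synthesis and its supply of acetyl-CoA and NADPH, 5 of 9 tested genes rose and 2 fell. The mitochondrial citrate carrier sea rose to 120.2 ± 1.85 CPM in KO, against 70.2 ± 6.52 CPM in WT (log2 difference 0.78, adjusted p = 0.000174), and shares exon bases with fabp on the same strand. ATPCL, which splits citrate into acetyl-CoA, rose by 0.43 (adjusted p = 0.00118). Zw, the glucose-6-phosphate dehydrogenase that supplies NADPH, fell to 24.9 ± 0.917 CPM in KO, against 47.9 ± 8.5 CPM in WT (log2 difference -0.95, adjusted p = 0.000768). The genes for NADPH supply moved in both directions. The malic enzyme gene Men-b rose by 0.49 (adjusted p = 0.011), a call lost with the segment offset. Pgd, 6-phosphogluconate dehydrogenase, fell by 0.29 (adjusted p = 0.0317), but was at 0.30 with that offset, and its call was lost when KO replicate 3 or any single WT replicate was left out. Outside the rule for naming genes, and looked up after their values were seen, Idh had a log2 difference of 0.19 (adjusted p = 0.0242) and Men one of 0.60 (adjusted p = 0.0516).

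In elongation and desaturation 5 of 10 tested genes rose and 3 fell. Baldspot, a fatty acid elongase, rose to 439 ± 31.8 CPM in KO, against 217 ± 2.02 CPM in WT (log2 difference 1.02, adjusted p = 3.66e-05). CG9743, of the same desaturase family as Desat1, fell to 11.9 ± 1.96 CPM in KO, against 78.2 ± 7.3 CPM in WT (log2 difference -2.71, adjusted p = 1.21e-05). The rule of lowest adjusted p also picked CG31523 and Hacd1, which rose by 0.54 and 0.61 (adjusted p = 0.000261 and 0.00102). It picked CG31522 and ifc as well, which fell by 0.62 and 0.35 (adjusted p = 0.000606 and 0.00224). The genes of this list thus moved in both directions where Desat1 was higher. The acyl-CoA synthetases, which activate fatty acids, had 3 of 8 tested genes that rose and 1 that fell. CG3961 rose to 18.8 ± 0.557 CPM in KO, against 1.28 ± 0.295 CPM in WT (log2 difference 3.91, adjusted p = 8.42e-06), and bgm by 2.43 (adjusted p = 0.000135).

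In glycerolipid and triglyceride synthesis 4 of 9 tested genes rose and 2 fell. CG4753, which the annotation names Agpat4 and which acts at the same step as fu12, rose to 14 ± 1.89 CPM in KO, against 1.9 ± 0.145 CPM in WT (log2 difference 2.87, adjusted p = 2.71e-05). mino, a mitochondrial glycerol-3-phosphate acyltransferase, rose by 0.56 (adjusted p = 0.000218). Gpo1, the mitochondrial glycerol-3-phosphate dehydrogenase, fell by 0.96 (adjusted p = 0.000248). CG3209, the Gpat4 of the annotation, fell by 0.29 (adjusted p = 0.00985), a call lost with the segment offset. Looked up after their values were seen, CG4729 had a log2 difference of 0.24 (adjusted p = 0.045) and CG3812 one of 0.57 (adjusted p = 0.332), so the acyltransferase genes of this list ranged from lower to much higher in KO. In phospholipid synthesis 7 of 15 rose and 4 fell, among them oys, which rose by 0.42 (adjusted p = 0.000226, the lowest of those that rose), and CG7718, the phosphatidylglycerophosphate synthase PGS1 of the annotation, which fell by 0.54 (adjusted p = 0.00229, the lowest of those that fell). Cds, which makes CDP-diacylglycerol, fell by 0.52 (adjusted p = 0.003) and the phosphatidylinositol synthase gene Pis by 0.62 (adjusted p = 0.00622).

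The lipid droplet and lipase list had 1 riser and 2 that fell among 6 tested genes. Hsl, hormone-sensitive lipase, fell to 136 ± 4.83 CPM in KO, against 187 ± 3.58 CPM in WT (log2 difference -0.45, adjusted p = 0.000278), whereas Lip4 was higher. In lipoprotein and sterol transport 4 of 9 rose and 2 fell. Apoltp, a lipid transfer apolipoprotein, rose to 207 ± 3.46 CPM in KO, against 7.39 ± 2.75 CPM in WT (log2 difference 4.79, adjusted p = 7.37e-06). Npc2a, which binds sterols, rose by 0.72 (adjusted p = 0.000102).

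In the mevalonate pathway 2 of 7 tested genes rose and 1 fell. In fatty acid oxidation 4 of 22 rose and 9 fell, with a median log2 difference of -0.15. CG12262, the medium-chain acyl-CoA dehydrogenase Mcad, fell to 14.3 ± 0.546 CPM in KO, against 42.8 ± 6.6 CPM in WT (log2 difference -1.58, adjusted p = 7.46e-05), though it shares exon bases with CG7457. CG17544 fell by 0.74 (adjusted p = 0.000161) and yip2, a ketoacyl-CoA thiolase, by 0.43 (adjusted p = 0.00255). The 4 that rose included colt by 0.45 (adjusted p = 0.00203) and CG4860 by 0.58 (adjusted p = 0.0181). These calls were kept in 15 and 12 of 16 alternatives. CPT2 also rose, by 0.44 (adjusted p = 0.00223), a call lost with the segment offset (0.11, adjusted p = 0.282). Oxidation genes thus moved in both directions while FASN1 and Desat1 were higher.

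Some genes related to the 10 by family or by reaction were looked up after their values were seen. FASN3, another fatty acid synthase, stood at 4.18 ± 0.41 TPM in KO and 2.93 ± 0.517 TPM in WT, where FASN1 stood at 502 ± 39.1 and 276 ± 29.3 TPM (SD, n = 3 each). FASN2 stood at 0.287 ± 0.0777 TPM in KO and 0.14 ± 0.105 TPM in WT, with overlapping groups. Desat2, another desaturase gene, stood at 1.28 ± 0.441 CPM in KO and 0.184 ± 0.0749 CPM in WT. CG1942, listed as Dgat2, was set beside mdy for its reaction only. It stood at 0.823 ± 0.416 CPM in KO and 0.914 ± 0.787 CPM in WT, with overlapping groups. Lip1, Lip2 and Lip3 had at most 4 counts in any library, so the pattern of Lip4 was not seen in them at this depth.

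Genes whose pattern over the 6 libraries was most like that of each gene were sought among 8404 genes. The measure was the root mean square difference of centred log2 CPM, with 0.5 CPM added first. For SREBP these were Asap, MED14 and dod, with a difference of 0.0177 to 0.0195, against a median of 0.264 over all genes. For FASN1 they were Cbs (0.0499), Mrp4 (0.0598) and CG15347 (0.0686). For SCAP the nearest was CG1620 (0.0167), for S1P RabX6 (0.0208), for AcCoAS Usp14 (0.0251) and for Desat1 CG12241 (0.0289). For ACC the nearest was Mtpalpha (0.0339), for fu12 Glt (0.193) and for Lip4 Ace (0.133). The medians over all genes were 2.98 for fu12 and 2.23 for Lip4. The WT means of fu12 and Lip4, 0.44 and 0.0956 CPM, lay below the added 0.5 CPM, so their nearest genes depend on it. For mdy the nearest was GstD7 (0.0807). None of the nearest genes named here was another of the 10.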

How the data were processed

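The 3 KO and 3 WT libraries were grouped by the labelled genotype. Per the submitters' processing notes, the tools were CASAVA 1.7, cutadapt, STAR 2.7.0f and RSEM 1.3.0 and the build was dm6. No source used here gives their settings, the annotation release or whether strand was used. The deposited tables hold RSEM expected counts, which need not be whole, TPM values and transcript lengths per gene, per the file headers. The deposited FPKM values were not used.

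The 10 genes and the 10 pathway lists were chosen with earlier results of these data known. Expected counts were rounded, genes with low counts were removed with filterByExpr (minimum count 10), libraries were scaled by TMM, and edgeR 4.0.16 quasi-likelihood tests compared KO with WT over 8405 genes, with Benjamini-Hochberg adjustment and a threshold of 0.05. The test was checked on simulated counts. DESeq2 1.42.0 and limma 3.58.1 gave alternatives. From each list up to 3 genes per direction with the lowest adjusted p were picked, if the group with the higher level averaged 1 TPM or more, with S2P whatever its value. The text describes only part of the 47 genes picked, and not always those with the lowest adjusted p. The genes described therefore do not stand for their lists. Same-numbered libraries of the groups deviated together (r = 0.49, 0.133 and 0.337, each over 0.1), and a fit with a replicate block was an alternative. KO replicate 3 with WT replicate 2 (0.324) and KO replicate 2 with WT replicate 3 (0.129) were about as close, so the values part replicate 1 from the rest but do not show which of replicates 2 and 3 belong together. Of the 141 pathway symbols listed, 5 were not found. Counts give intervals for counting error only. The 127 genes not in the annotation used here have no coordinates. A planned search of promoters for SREBP motifs was not run, because no sequence was used here.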

Additional observations from a re-analysis of the deposited data

How the results depend on the processing

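Under 16 alternatives the count past the threshold stayed between 3607 and 5805 of all tested genes (4551 as reported), between 51 and 84 of the pathway genes (67) and between 8 and 10 of the 10 genes (9). Leaving out 1 replicate at a time gave 3607 to 4688 calls over all genes, 53 to 73 over the pathway genes and 8 to 10 over the 10. With the replicate block, which takes same-numbered libraries as pairs, 5061 of all genes and 74 pathway genes passed, and all 67 pathway calls were kept. ACC missed the threshold in the reported fit and passed without KO replicate 1, without both number-1 libraries and with the segment offset. AcCoAS lost it without KO replicate 2 or 3 and without each WT replicate, with no count filter, on both TPM scales and with WT replicates 2 and 3 summed. With segment medians as offset, Desat1 turned to -0.20 and was no longer past the threshold. With the same offset CG14906 turned to -0.29 (adjusted p = 0.0497), Pgd to 0.30 (adjusted p = 0.0361) and Seipin to 0.27 (adjusted p = 0.0484), and the cause was not tested. With that offset 45 of the 67 pathway calls were kept. The WT values of fu12 and Lip4 rest on 20 and 5 counts, which limits how well their ratios are known.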
